A study of Mus musculus with 9 samples.

Results

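The genes described here are 10 genes of epithelial antimicrobial defence: the beta-defensin genes Defb1, Defb2, Defb3, Defb4 and Defb14, the lectin genes Reg3a, Reg3b and Reg3g, the lysozyme gene Lyz1 and the peptidoglycan recognition protein gene Pglyrp1. They were taken by name, and each was read by 1 probe, so they account for 10 of 55681 non-control probes. They were picked because Defb3 and Reg3g had been lower in knockout stomachs. The differences between the genotypes are therefore given for them as a description, with no test.

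RNA of stomachs from newborn mice was compared between 5 C/EBPbeta KO mice (KO 1 to KO 5) and 4 WT mice (WT 1 to WT 4), with 1 Agilent 1-colour array per mouse. Cebpb encodes C/EBPbeta, a transcription factor of the leucine zipper class. All 9 mice were killed at birth without any treatment named in the labels, although the labels' source field uses the word old. Strain, litters, sex, the part of Cebpb that was removed and the cells that lacked it are not given in the sources used here.

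Beta-defensins are small cationic peptides that squamous and mucosal epithelia release and that damage bacterial membranes. Some are made steadily, and others are induced by bacterial products and cytokines such as IL-17 and IL-22. Reg3 lectins bind bacterial surface sugars at the gut lining, lysozyme cuts peptidoglycan, and Pglyrp1 binds it. The mouse stomach has a squamous forestomach beside its glandular part, so both types of epithelium contribute RNA to a whole stomach. In such bulk RNA, fewer cells of a type and less RNA per cell cannot be told apart.

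Signal is given below as a percentage of the array's 75th percentile of all non-control spots, which was 221 (WT 4) to 472 (KO 3) intensity units. The scanner software marked 50.9% to 57.2% of an array's spots as well above background. In the knockout mice KO 1 to KO 5 the Cebpb probe read 15%, 13.6%, 33.6%, 24.3% and 31.2%, against 802% to 1310% in wild type, which matches every label. All 16 gastric gland and all 21 squamous marker genes listed were well above background on all 9 arrays. WT 4 differed from its 3 fellow wild-type arrays, with a mean log2 level of the squamous list of 3.20 against 4.73 to 4.98. Slide 1 held KO 4, KO 5, WT 3 and WT 4, slide 4 held KO 2, WT 1 and WT 2, and KO 3 and KO 1 were on slides of their own. Signal of Y-linked genes was low or missing in 3 of 5 knockout mice (KO 2, KO 4 and KO 5) and in 0 of 4 wild-type mice. The mean log2 level of 3 Y-linked genes was −0.391 to 0.0351 in the other mice, called those with Y-linked signal below. It was −5.16 on KO 2, where 1 Y-linked gene was well above background, −6.47 on KO 4 and −7.06 on KO 5. Results that rest on WT 4, on slide or on these 3 mice are given with their values.

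Because near-identical relatives can share signal, 30 bases of the probes behind the main values are shown, with capitals for the longest run of bases that the probe shares with the probe of any other gene on the array. Each probe has 60 bases. The windows are bases 9 to 38 of the Defb3 probe, 31 to 60 of Defb4, 29 to 58 of Reg3g and 1 to 30 of Lyz1.
Defb3: acaaatctTAAACCAAATTAATattccttg
Defb4: taaaaagacgaagAACCAGCAAGATGAAta
Reg3g: atatacctaGCCACAAGCAAGAtcccaaat
Lyz1: ccaataACCACAGGAGCAAAtctaatctca
The longest shared run had 14 bases for Defb3, 15 for Defb4, 13 for Reg3g and 14 for Lyz1, and in none of these was the other probe that of a defensin, Reg or lysozyme gene. Transcripts outside the probe sequences were not compared.

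On mouse build mm9 the array design places the defensin probes on chromosome 8, Defb14 at chr8:19195152-19195211, Defb4 at chr8:19201282-19201341, Defb3 at chr8:19295274-19295333, Defb1 at chr8:22905041-22905100 and Defb2 at chr8:22953869-22953928. The Reg3 probes lie together on chromosome 6, Reg3b at chr6:78323323-78323382, Reg3a at chr6:78333635-78333694 and Reg3g at chr6:78416420-78416479 on the minus strand. Lyz1 is read at chr10:116724862-116724921 on the minus strand and Pglyrp1 at chr7:19475662-19475721. The files do not say which exon each probe lies in.

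The promoters of the 3 genes whose knockout arrays all lay below the wild-type arrays are shown because C/EBPbeta binds DNA. The sequences are RefSeq's on GRCm38.p6, a later build than that of the array, and run from 250 bases before the start site to the base before it, at chr8:19293111-19293360 (plus strand) for Defb3, chr6:78468875-78469124 (minus strand) for Reg3g and chr10:117292869-117293118 (minus strand) for Lyz1. Capitals mark a match to the C/EBP-type motif TTNNGCAA on either strand, which reads TTGCNNAA on the other.
Defb3: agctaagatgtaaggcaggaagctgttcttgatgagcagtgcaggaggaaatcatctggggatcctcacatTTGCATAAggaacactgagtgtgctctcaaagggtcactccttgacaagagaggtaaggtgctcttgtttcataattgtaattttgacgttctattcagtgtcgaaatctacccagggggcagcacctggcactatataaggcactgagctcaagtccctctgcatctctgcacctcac
Reg3g: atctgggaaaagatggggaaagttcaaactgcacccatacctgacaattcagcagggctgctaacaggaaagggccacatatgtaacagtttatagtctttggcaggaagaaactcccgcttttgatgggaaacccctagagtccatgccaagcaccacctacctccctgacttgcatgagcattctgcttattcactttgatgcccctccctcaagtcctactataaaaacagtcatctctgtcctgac
Lyz1: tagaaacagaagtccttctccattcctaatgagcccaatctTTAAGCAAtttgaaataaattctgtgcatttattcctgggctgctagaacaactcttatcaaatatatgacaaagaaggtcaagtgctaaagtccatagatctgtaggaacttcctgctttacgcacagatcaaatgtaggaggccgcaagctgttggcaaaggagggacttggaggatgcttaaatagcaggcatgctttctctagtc
The Defb3 match begins 179 bases and the Lyz1 match 209 bases before the start site, and the Reg3g window holds none. The motif was found in 3 of the 6 listed genes with a promoter in the table, the third being Reg3a, whose probe was on no array well above background. It was found in 3142 of all 32851 promoters (9.56%). An NF-kB-type motif, GGG and TTCC with any 3 bases between them, searched on both strands, was found in Pglyrp1 alone among the 6, 93 bases before its start, and in 4.65% of all promoters. The motifs do not overlap in these windows, and a match is a stretch of letters, not a measured binding site.

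Among the beta-defensins, the signal of Defb3 was at background in knockout stomachs and above it in wild type, Defb4 varied widely among knockout mice, and Defb1 and Defb14 overlapped between the genotypes. Defb3 encodes an inducible beta-defensin of epithelia. Its probe read 21.8%, 13.0%, 36.1% and 13.7% on WT 1 to WT 4. On KO 1 to KO 5 it read 1.06%, 1.68%, 0.862%, 1.34% and 0.778%, where all 5 values are surrogates that the scanner software sets for spots at background. All 4 wild-type arrays were thus well above background and 0 of 5 knockout arrays were, with no overlap. Over all 55681 probes, 5 (0.00898%) had that split. Because the knockout side has only a limit, Defb3 was at least 4.59-fold lower there. This approximate bound sets the bright group's mean against the lowest signal of any probe well above background on each dim array. The fitted log2 difference of −4.14 ± 0.34 (SE, 5 against 4 mice) rests on the surrogate values. The difference was −4.44 within slide 1 and −3.32 within slide 4, and −4.34 between the 2 knockout and 4 wild-type mice with Y-linked signal.

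Defb4, another inducible beta-defensin, read 102%, 181%, 132% and 81.2% on WT 1 to WT 4. It read 11.7%, 76.0%, 296%, 19.4% and 23.0% on KO 1 to KO 5. KO 3 lay above every wild-type mouse and the other 4 knockout mice below every one, so the groups overlap. Its log2 difference was −1.53 ± 0.83, with an SD of 1.87 in knockout and 0.50 in wild type. It was −2.24 without KO 3, −2.29 within slide 1 and −0.84 within slide 4, both of which leave KO 3 out.

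Defb1 is the beta-defensin that many epithelia make without induction. It read 175%, 88.8%, 178% and 15.7% on WT 1 to WT 4. In knockout it read 120%, 101%, 90.5%, 206% and 42.9% on KO 1 to KO 5. The groups overlap, and WT 4 had the lowest value of all 9 mice. The log2 difference was 0.29 ± 0.71 and turned to −0.50 without WT 4, the array with the low squamous list. Within slide 1 it was 0.83 and within slide 4 −0.30.

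Defb14, whose protein is the mouse counterpart of human beta-defensin HBD-3, read 819%, 576%, 1400%, 724% and 977% on KO 1 to KO 5. It read 1090%, 700.0%, 1190% and 564% on WT 1 to WT 4. The groups overlap over nearly their whole range, and the log2 difference was 0.02 ± 0.30, with −0.17 without WT 4, 0.04 within slide 1 and −0.60 within slide 4. Defb2 was well above background on no array, at 0.704% to 1.46% in knockout and 0.610% to 1.51% in wild type. No direction is given for it.

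**Figure D1:**
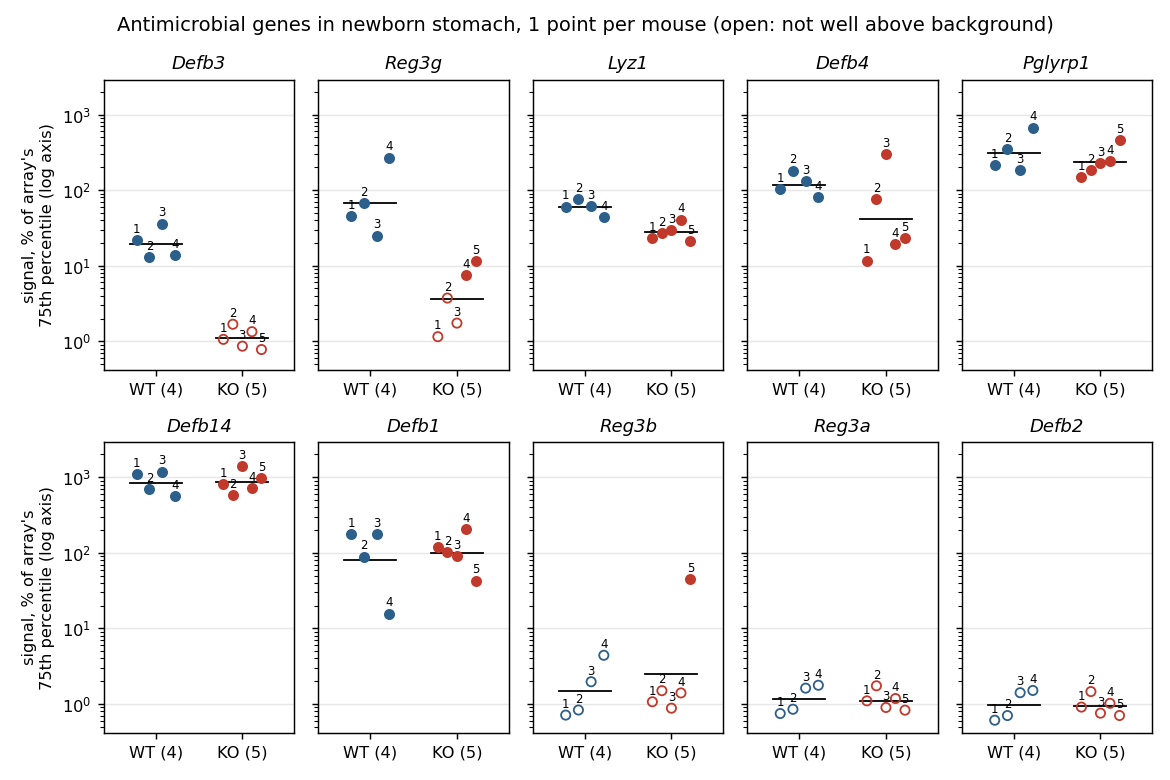
Signal of the 10 genes as a percentage of the array's 75th percentile on a log axis, 1 point per mouse (blue WT, red KO, numbered by mouse, open where the probe was not well above background), with a line at the geometric mean of the group. The 5 open red Defb3 points lie at 0.778% to 1.68% against 13.0% to 36.1% in wild type, Lyz1 and Reg3g also have every red point below every blue one, and KO 5 is the 1 filled point of Reg3b.

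Of the Reg3 lectins, Reg3g was lower in every knockout mouse than in every wild-type mouse, Reg3b was seen in 1 mouse, and Reg3a in none. Reg3g encodes a lectin that binds peptidoglycan of Gram-positive bacteria. It read 45.2%, 68.0%, 25% and 270.4% on WT 1 to WT 4, all well above background. It read 1.15%, 3.73%, 1.74%, 7.44% and 11.4% on KO 1 to KO 5, where KO 4 and KO 5 were well above background and the other 3 were not. The highest knockout value lay below the lowest wild-type value, and WT 4 stood above the other wild-type mice. The log2 difference was −4.22 ± 0.81 (18.6-fold), and −3.55 without WT 4. Its size rests in part on the 3 knockout arrays where the probe was not well above background, so the fold is uncertain. With another background correction (normexp), which compresses dim spots, the log2 difference was −1.91. Under the main processing, it was −3.16 within slide 1, −3.89 within slide 4 and −5.58 between mice with Y-linked signal. For this last value, the knockout side is KO 1 and KO 3, both not well above background.

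Reg3b, a lectin with activity against Gram-negative bacteria, read 45.2% on KO 5 and 0.880% to 1.5% on the other 4 knockout arrays. On WT 1 to WT 4 it read 0.713%, 0.832%, 1.97% and 4.41%. KO 5 was the 1 array of 9 on which the probe was well above background. Reg3a, whose protein is a further secreted lectin of the family, lay at 0.83% to 1.74% in knockout and 0.748% to 1.77% in wild type, and was well above background nowhere.

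Markers of intestine, a neighbouring organ where Reg3 lectins are made, were examined beside these values. Of 17 intestinal and Paneth cell genes with a probe, 15 were well above background on KO 5, 11 on KO 4 and 6 to 10 on the other arrays. The summed signal of the 9 tested genes of the list was 1142% to 2052% in knockout and 724% to 1348% in wild type. The mean log2 level of these 9 genes was 0.02 on KO 4 and 0.44 on KO 5, −0.90 to −0.67 on the other knockout arrays and −1.18 to −0.86 in wild type. KO 4 and KO 5 are the knockout mice with Reg3g well above background, but WT 4, the mouse with the highest Reg3g, had the lowest list mean (−1.18) and the fewest of these genes well above background (6 of 17). Pancreas, which also makes Reg proteins, had 17 genes with a probe, of which 10 to 13 were well above background per array. The summed signal of the 12 tested pancreatic genes was 865% to 1343% in knockout and 756% to 1649% in wild type. Much of this sum was the signal of Bhlha15, with a mean log2 level of 1.9 in knockout and 2.3 in wild type, and of Rbpjl (1.4 and 0.7). Prss2, Pnlip and Gp2 were on no array well above background. The part of either organ in the Reg3 values was not tested.

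Lyz1, the lysozyme of Paneth cells, was lower in every knockout mouse, and Pglyrp1 overlapped. Lyz1 read 60.4%, 76.8%, 60.7% and 43.7% on WT 1 to WT 4. It read 23.3%, 26.7%, 29.6%, 40.7% and 21.4% on KO 1 to KO 5, all well above background. The groups do not overlap, but KO 4 and WT 4 lay close together. The log2 difference was −1.10 ± 0.23 (2.14-fold), with −0.80 within slide 1, −1.35 within slide 4 and −1.17 between mice with Y-linked signal. Lyz2, the lysozyme of macrophages and a near-identical gene, is named here after its values were seen. Its probe was well above background on 2 of 5 knockout and 3 of 4 wild-type arrays, with a log2 difference of −0.78 ± 0.52 (limma adjusted p = 0.763). The 12 macrophage genes, 11 or 12 of which were well above background per array, summed to 3459% to 4601% in knockout and 2434% to 4099% in wild type.

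Pglyrp1, whose protein binds peptidoglycan and is stored in neutrophil granules, read 148%, 186%, 229%, 244% and 457% on KO 1 to KO 5. It read 216%, 345%, 186% and 669% on WT 1 to WT 4. The groups overlap, with KO 5 and WT 4 the highest of their groups. The log2 difference was −0.41 ± 0.42 and came to −0.04 without WT 4. Of 15 granulocyte genes, 8 to 11 were well above background per array, and Prtn3, Ngp and Fcnb were on none. The summed signal of the 10 tested granulocyte genes was 8753% to 17890% in knockout and 11883% to 25707% in wild type. Most of this sum was the signal of 1 probe, that of Csf3r, with a mean log2 level of 6.85 in knockout and 6.97 in wild type. The part of granulocytes in the Pglyrp1 values was not tested.

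Of the 10 genes, 7 were well above background on at least 4 arrays and so entered the comparison of all genes, 5 of them on all 9 arrays. Defb2, Reg3a and Reg3b did not, and 2 of these, Defb2 and Reg3a, were on no array well above background, as were 36% of all probes. Every knockout array lay below every wild-type array for 3 of the 7 (Defb3, Reg3g and Lyz1), as it did for 234 of 21723 genes (1.08%). The fitted difference was negative for 5 of the 7 and for 49.1% of all genes, and its median was −1.10 over the 7 and 0.00 over all genes. Since Defb3 and Reg3g were chosen from this comparison, and Defb3 met the filter through wild-type arrays alone, these counts describe the choice and nothing is read from them.

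**Figure D2:**
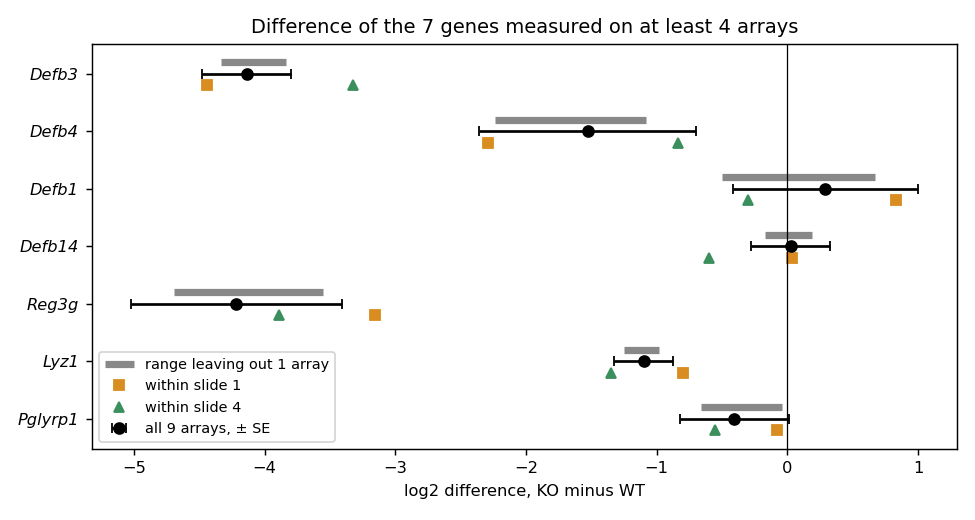
Log2 difference, KO minus WT, of the 7 genes measured on at least 4 arrays: black points with limma's SE over 9 arrays, grey bars for the range when each array was left out in turn, orange squares within slide 1 (2 KO, 2 WT) and green triangles within slide 4 (1 KO, 2 WT). Defb3, Defb4, Reg3g, Lyz1 and Pglyrp1 lie left of 0 in every estimate, and Defb1 runs from −0.50 to 0.83 across it.

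Relatives outside the 10 genes were read from the same comparison. The array holds 71 further probes named for defensins (Defa or Defb), and 49 of them were well above background on no array, 11 on 1 to 3 arrays and 11 on at least 4. Of these last 11, 1 passed the threshold over all genes (limma adjusted p below 0.05), as did 44 of all 21723 genes (0.203%), 17 of them lower (0.0783%) and 27 higher in knockout (0.124%). This was the probe of Defb48-ps, listed as a beta-defensin pseudogene and named Gm21944 in the current RefSeq table. It read 52.0%, 38.4%, 74.1% and 44.1% on WT 1 to WT 4 and 15.9%, 2.93%, 5.17%, 5.70% and 5.97% on KO 1 to KO 5. All knockout mice lay below all wild-type mice. Defb48-ps fell by 3.06 ± 0.42 on the log2 scale (8.33-fold; limma adjusted p = 0.0251), and the difference was −3.29 within slide 1 and −3.93 within slide 4. The design places this probe on unplaced sequence of chromosome 8, so its position relative to Defb3 is not known here. The call held with slide as a block (limma adjusted p = 0.0218) and was lost without KO 3, KO 4, KO 5, WT 1, WT 2 or WT 3 (0.0528 to 0.112) and with the level of Y-linked genes as a covariate (−2.60, 0.312).

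Defb6 and Defb7, which lie on either side of Defb3 on chromosome 8, differed in opposite directions without passing the threshold. Defb6, at chr8:19228090-19228149, read 73.8%, 58.0%, 87.7% and 52.3% on WT 1 to WT 4 and 18.6%, 29.1%, 40.9%, 36.6% and 11.3% on KO 1 to KO 5. Its groups do not overlap, with a log2 difference of −1.43 ± 0.37 (limma adjusted p = 0.278). Defb7, at chr8:19497669-19497728, read 44.1%, 78.0%, 79.9% and 50.7% on WT 1 to WT 4 and 146%, 168%, 91.5%, 85.2% and 87.4% on KO 1 to KO 5. All its knockout mice lay above all wild-type mice, with a log2 difference of 0.86 ± 0.28 (limma adjusted p = 0.412). Over all genes, 3.38% had groups that do not overlap in either direction. Along the chromosome from Defb14 to Defb7, the log2 differences were 0.02 for Defb14, −1.53 for Defb4, −0.93 for the alpha-defensin pseudogene Defa-ps12, −1.43 for Defb6, −4.14 for Defb3 and 0.86 for Defb7. The other 8 defensin probes, Defa-ps12 included, had overlapping groups and limma adjusted p-values of 0.695 to 0.993.

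**Figure D3:**
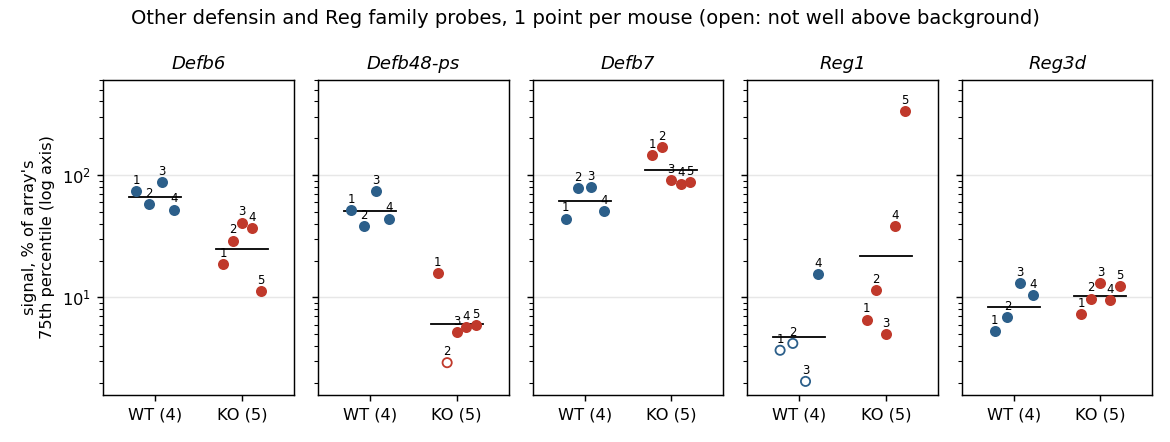
Signal of 3 further defensin probes and 2 Reg genes as a percentage of the array's 75th percentile on a log axis, 1 numbered point per mouse (blue WT, red KO, open where not well above background), with a line at the geometric mean of the group. Defb6 and Defb48-ps are lower and Defb7 higher in every knockout mouse than in every wild-type mouse, and Reg1 reaches 333% on KO 5.

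The Reg genes beside Reg3g on chromosome 6 showed no such separation. Reg1, a secreted protein gene of pancreas and regenerating mucosa read at chr6:78378527-78378586, was at 6.59%, 11.4%, 5.03%, 38.2% and 333% on KO 1 to KO 5. It was at 3.70%, 4.21%, 2.06% and 15.4% on WT 1 to WT 4, of which WT 4 alone was well above background. KO 5, the mouse with Reg3b signal, was the highest, and the log2 difference was 2.20 ± 1.15 (limma adjusted p = 0.645). Reg3d, read at chr6:78325868-78325927, lay at 7.35% to 13.1% in knockout and 5.33% to 13.1% in wild type, with a log2 difference of 0.28 ± 0.28 (limma adjusted p = 0.861).

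Of 45 other antimicrobial effector genes listed, 31 were tested, 20 with a positive and 11 with a negative difference. Over all genes, 1 of the 31 passed the threshold, S100a9 (0.203% of all genes did), 5 had an unadjusted p below 0.05 (8.73% of all genes), and the median difference was 0.16. S100a9 encodes a calcium-binding protein that withholds metals from microbes as a partner of S100a8. It read 2140%, 2190%, 2240% and 901% on WT 1 to WT 4 and 132%, 320.0%, 253%, 301% and 350% on KO 1 to KO 5. S100a9 fell by 2.77 ± 0.36 on the log2 scale with no overlap (limma adjusted p = 0.0160). S100a8, named after its values were seen, differed by 0.11 ± 0.33 (limma adjusted p = 0.974). The S100a9 call was lost with slide as a block (−2.38, limma adjusted p = 0.181), with the level of Y-linked genes as a covariate (−3.26, 0.0721) and without any 1 of KO 3, KO 4, WT 1, WT 2 and WT 3 (0.0524 to 0.0848). S100a9 is also a member of the granulocyte list, of which 7 of 10 tested genes had a negative difference.

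The next 4 effector genes by p did not pass. The protease inhibitor genes of the whey acidic protein family Wfdc12 and Wfdc2 differed by −1.65 ± 0.41 (limma adjusted p = 0.264) and −0.84 ± 0.26 (0.385). Their relative Wfdc15b differed by 1.26 ± 0.37 (0.366), and the ribonuclease gene Ang by 0.68 ± 0.28 (0.536). Wfdc12 was well above background on 2 of 5 knockout and 3 of 4 wild-type arrays.

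Of 46 genes that sense microbes or induce defensins and Reg3 lectins, 34 were tested, 18 with a positive and 16 with a negative difference. By limma, 0 passed the threshold over all genes and 3 of the 34 had an unadjusted p below 0.05, near the share of all genes (8.73%), and the median difference was 0.01. The 4 with the smallest p were the NF-kB subunit gene Nfkb2 (0.41 ± 0.13; limma adjusted p = 0.409), the receptor gene Tlr2 (0.41 ± 0.16; 0.498), the IL-17 receptor gene Il17rc (−0.51 ± 0.22; 0.558) and Stat3, which carries the IL-22 signal (−0.32 ± 0.19; 0.71). The cytokine genes Il17a, Il17f and Ifng and the receptor gene Il22ra1 were on no array well above background. At this detection limit, a difference in them could not be measured.

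**Figure D4:**
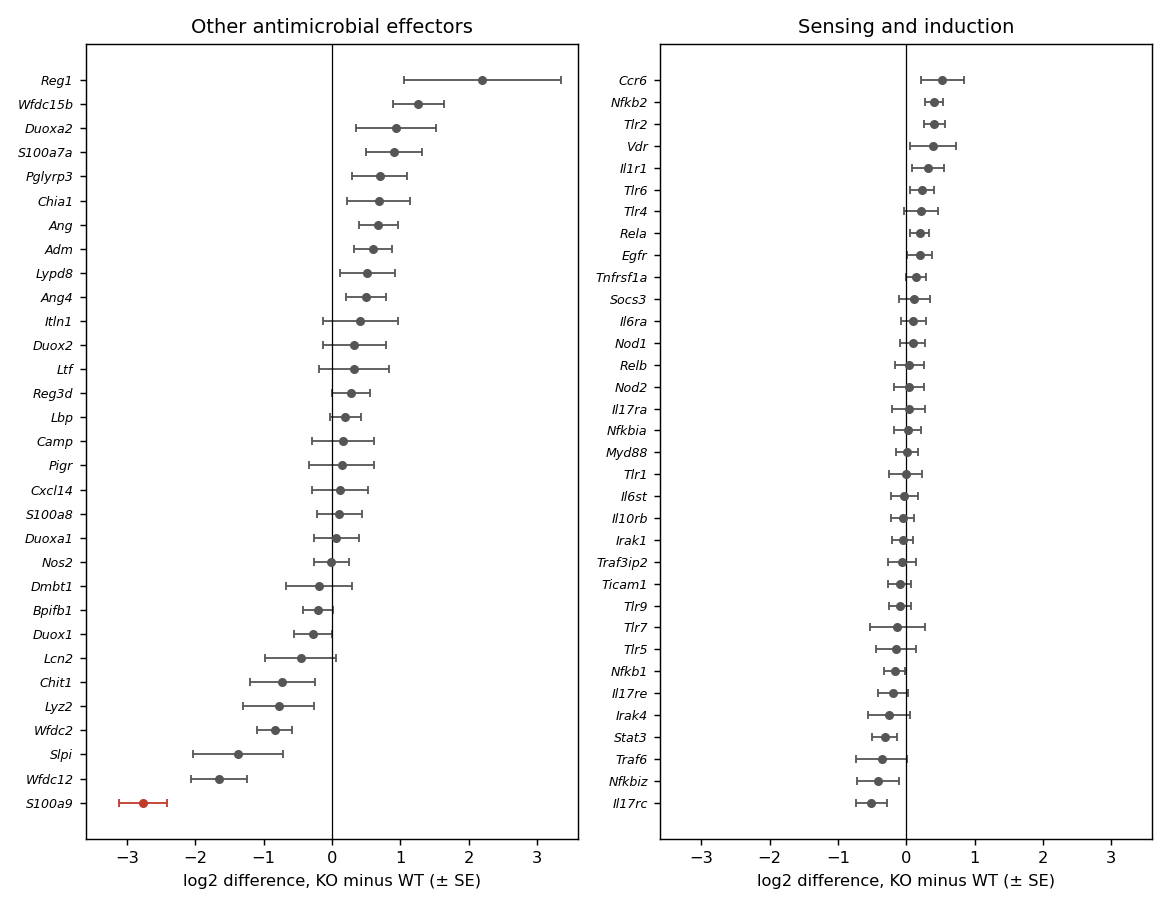
Log2 difference, KO minus WT, with limma's SE for the 31 other antimicrobial effector genes and the 34 sensing and induction genes tested (5 KO against 4 WT arrays), ordered by size, in red where the adjusted p over all genes is below 0.05. S100a9 at −2.77 is the 1 red point, and the sensing genes lie between −0.51 and 0.53.

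How the genes varied from mouse to mouse within a genotype does not use the comparison that chose them. For each array, the deviation of a gene's log2 level from its genotype's mean was taken, and genes were compared over the 9 arrays by Pearson's r, as a description. The arrays share their scaling and the dissection of each stomach, and WT 4 and KO 5 had the lowest squamous list means (3.20 and 3.32). Among the 7 genes, the closest pair was Reg3g and Pglyrp1 (r = 0.90, Spearman's rho = 0.87). Without KO 1 and WT 4, the arrays farthest from the median of Reg3g, r was 0.82. Without KO 5 and WT 4, the arrays farthest from the median of Pglyrp1, it was 0.71. Reg3g was not well above background on KO 1, KO 2 and KO 3. Reg3g and Pglyrp1 were both highest within their genotype on WT 4 (deviations of 2.00 and 1.11) and KO 5 (1.65 and 0.97). Defb1 and Pglyrp1 ran opposite (r = −0.86), but r was −0.37 without KO 5 and WT 4, so that the relation rests on those mice. Defb4 followed none of the others closely, with r from −0.26 to 0.38.

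The marker lists were set against the same deviations. Defb1 followed the squamous list (r = 0.89) but with 0.30 when KO 5 and WT 4 were left out, and ran against the gastric gland list (r = −0.87, and −0.80 without these mice). Lyz1 followed the squamous and the macrophage list, each with r = 0.78, and 0.84 and 0.82 without KO 4 and WT 4. The macrophage list contains Lyz2. Defb1 also followed the macrophage list (r = 0.82, and 0.35 without KO 5 and WT 4). Reg3g followed the pancreatic list (r = 0.88, and 0.85 without KO 1 and WT 4), a list that contains Reg1. Reg3g also followed the granulocyte list (r = 0.78, and 0.56 without these mice) and the gastric gland list (0.65, and 0.33). Reg3g ran against the squamous list (r = −0.71, and −0.76 without these mice). Its deviations on KO 1, KO 2 and KO 3, where it was not well above background, enter these values. Pglyrp1 also followed the pancreatic list (r = 0.92, and 0.60 without KO 5 and WT 4). Its r was 0.76 to the granulocyte list (0.53 without these mice) and 0.75 to the gastric gland list (0.54). To the squamous list its r was −0.76, and 0.31 without these mice. Defb1 ran against the pancreatic list (r = −0.88, and −0.24 without KO 5 and WT 4). The squamous list as a whole had 15 of 21 genes with a negative difference between the genotypes, as had 49.1% of all genes. Of the 21, 0 passed the threshold and 3 had an unadjusted p below 0.05 (8.73% of all genes), with a median difference of −0.31. The summed signal of the squamous list was 84041% to 194154% in knockout and 92877% to 270153% in wild type. Of the 16 gastric gland genes, 15 had a positive difference, while 49.1% of all genes had a negative one. The threshold was passed by 1 of the 16 (0.203% of all genes). An unadjusted p below 0.05 was seen for 7 of them (8.73% of all genes), and the median difference was 0.54. The part of these tissue shares in the values of the defensins was not tested.

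**Figure D5:**
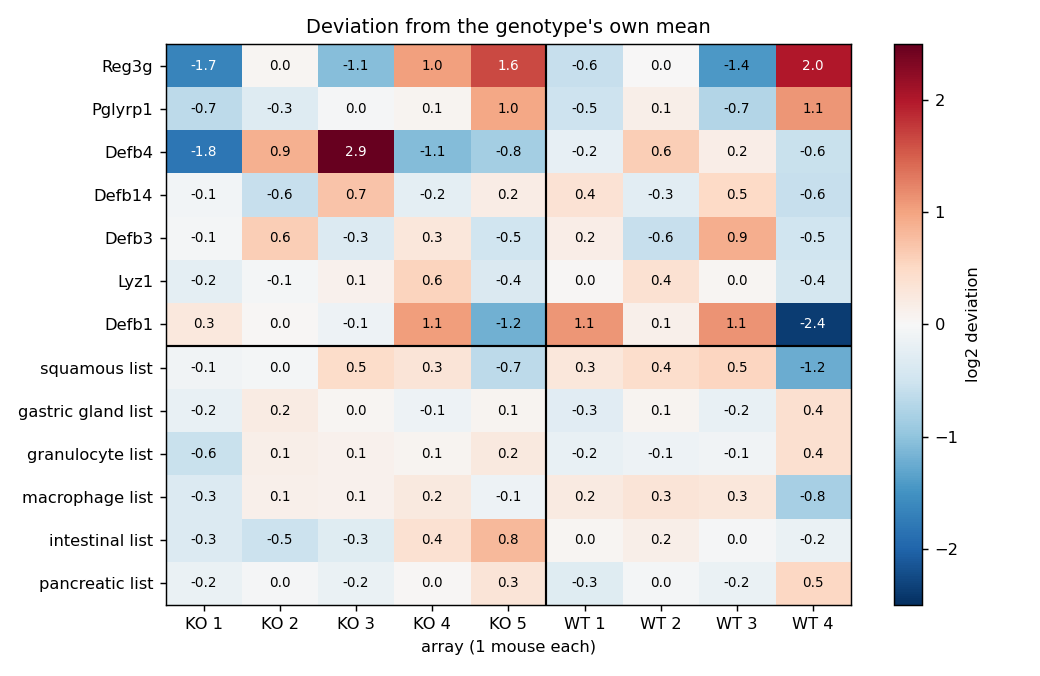
Deviation of each array from its own genotype's mean (log2, blue below and red above) for the 7 measured genes and, under the line, for the mean of 6 marker lists, with 1 column per mouse. Reg3g and Pglyrp1 are raised on WT 4 and KO 5, where Defb1 and the squamous list are lowest within their genotypes; the knockout values of Defb3 are surrogates.

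Over all 21723 genes, those nearest to each gene in this measure were found in the same way, as a description over 9 arrays. They are not given for Defb3, whose knockout values are surrogates. Among the 5 nearest to Reg3g, which was not well above background on KO 1, KO 2 and KO 3, were Lyn (0.955) and Glb1 (0.941). The nearest gene was Galnt16 for Defb1 (0.990), Cd300c2 for Defb4 (0.965), Snrpd1 for Defb14 (0.971), Tinagl1 for Lyz1 (0.974) and Enpp4 for Pglyrp1 (0.966). All these values were picked as the highest over 21723 genes on 9 arrays. High values are likely from that choice alone, and no shared regulation is read from them. They were not recomputed without the outlying arrays, on which several relations of Defb1 and Pglyrp1 given above rested. None of the 7 was among the 5 nearest of another.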

How the data were processed

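RNA of 9 newborn mouse stomachs was hybridised to Agilent 1-colour arrays, 1 per mouse. Per the file headers, the deposited processed signal is spot intensity on a linear scale made with Feature Extraction 10.5.1.1, background-subtracted with a spatial detrend and with surrogates for dim spots, not normalized between arrays. The submitters' processing notes name Feature Extraction 9.1. Raw mean and background intensity and the other columns, yes or no flags (well above background, saturated, outlier), come from the same deposited files. The deposited series matrix holds log2 values. After 1 constant shift per array (largest 0.676 log2), its differences between arrays followed log2 of the processed signal (largest deviation 3.61e-06 over 24294 probes). What its probes were centred on is unknown. Its columns had medians of 0.0436, 0.217, −0.124, 0.0347 and −0.137 (KO 1 to KO 5) and −0.279, −0.161, 0.224 and 0.382 (WT 1 to WT 4). Its 55821 identifiers all matched probe names.

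The 3671 control spots of 62976 and outlier spots were left out, 0 spots were saturated, and repeat spots were averaged; 21 probes lacked a value on at least 1 array. Processed signals were divided by their array's 75th percentile and taken to log2. Limma 3.58.1 (two-sided, lmFit and eBayes, R 4.3.3, no covariate) compared 21723 genes, using for each the brightest probe on average among those well above background on at least 4 of 9 arrays. P-values were adjusted by Benjamini-Hochberg over all of them, and a call is an adjusted p below 0.05. SE is limma's, and the number of arrays limits the precision. In data simulated from these genes with 200 changed ones, 85% of log2 changes of 2 and 96% of changes of 3 were recovered, with 4.74% false calls. The simulated noise was independent between genes, with no variation shared by slide or mouse, so these rates need not hold for the real arrays.

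For a probe on no array of a group well above background, "at least N-fold" sets the bright group's mean against a limit for each dim array, which is the lowest signal of any probe well above background or, if higher, the probe's own. A probe can exceed that lowest signal and still not be well above background, as Wfdc12 did on KO 4, so the bound is approximate. Levels of different probes are not compared. The genes, the marker lists and the tests were chosen with earlier results of these data known. Named beside the 10 genes are the defensin probes well above background on at least 4 arrays, every effector or sensing gene past the threshold and otherwise the 4 with the smallest p of each list, and those of the 5 nearest genes that are reported here. Through its accession, 26762 probes matched RefSeq (GRCm38.p6) and 2878 took another symbol. Its promoter table held 6 of the 10 genes. Scan time coincided with slide and was not fitted. The alternatives were another background correction, scaling, filter, probe rule, block, covariate and variance model and each array left out, and within-slide and Y-linked subsets added after seeing the data.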

Additional observations from a re-analysis of the deposited data

Results flagged for a closer look

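In 3 of 44 groups of 4 or 5 mice examined, 1 mouse lay far from the others of its genotype by Dixon's criterion, and chance alone gives about 5% of groups. Reg3b on KO 5 had a log2 level of −1.14 against −6.06 on the next knockout mouse, a gap of 0.864 of the group's range. It is the array on which Reg1 (333%) and the count of intestinal genes well above background (15 of 17) were also highest. S100a9 on WT 4 had a log2 level of 3.17 against 4.42 on the next wild-type mouse, a gap of 0.953 of the range, and still lay above every knockout mouse. Wfdc12 on KO 2 lay at −5.99 against −4.66 on the next knockout mouse (0.726 of the range), and was not well above background there.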

How the results depend on the processing

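The number of genes called, 44, was 40 to 53 with normexp background, quantile or median scaling, the percentile over detected probes, the series matrix, the mean of a gene's probes, the filter on all 9 arrays or trend and robust variances. It was 22 with no filter, 5 with slide as a block, 4 with the level of Y-linked genes as a covariate, 533 with array weights and 11 (without WT 1) to 161 (without WT 4) when 1 array was left out, with 28 without KO 2, 18 without KO 3, 23 without KO 4 and 17 without WT 2 or WT 3. Of the effector and sensing genes, 1 was called, and 0 with slide block or Y-linked covariate, 4 with array weights (among them Wfdc12, −1.68, and Wfdc15b, 1.45) and 0 to 2 (2 without WT 4) when 1 array was left out. The cause of these changes was not tested.

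Of the 10 genes, 5 of 7 had a negative difference, and 3 of 5 with the filter on all 9 arrays, which drops Defb3 and Reg3g. Normexp, whose offset of 50 compresses dim spots, gave −1.29 for Defb3 and −1.91 for Reg3g. Within slide 4, Defb3 was at −3.32 and Defb14 at −0.60. No difference past the threshold reversed in any alternative run. Gains and losses of calls are not counted for the 10 genes, which were chosen from this comparison. Scaling moved the median of all genes by less than 0.1.

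Both genotypes share mouse numbers 1 to 4, but these do not pair the mice (same-numbered deviations correlated at −0.305, 0.122, 0.153 and −0.482). With the replicate number as a block and without KO 5, 4 genes were called, 0 of them an effector or sensing gene, and S100a9 (−2.88, limma adjusted p = 0.200) and Defb48-ps (−3.05, 0.196) lost their calls. Defb48-ps also lost it with no filter (0.0513).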
